A study of Mus musculus with 6 samples.

Results

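The TNF receptor superfamily was followed in CD8+ T cells positive for PD-1 and TIM-3 from mouse melanomas, as 10 genes taken by name from the 15898 genes listed for the series. Of these, 5 encode receptors without a death domain that costimulate T cells (Tnfrsf4, Tnfrsf9, Tnfrsf18, Tnfrsf1b and Cd27), 4 encode receptors with a death domain (Fas, Tnfrsf1a, Tnfrsf25 and Tnfrsf10b), and Tnfrsf26 was placed in neither group. All 10 were found, and 9 passed the filter on low counts; Tnfrsf25 did not. Tnfrsf25, known as DR3, carries a death domain and is also known to costimulate T cells.

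The libraries came from PMEL T cells of the strain B6.Cg-Thy1a/Cy, with the transgene Tg(TcraTcrb)8Rest/J, whose transgenic receptor sees the melanocyte antigen gp100, in C57BL/6 mice carrying B16F10 melanomas. All animals of both groups received 4 Gy of total body irradiation on day -4, 2000000 naive Thy1.1+ PMEL cells on day -3 and 5000000 activated Thy1.2+ PMEL cells on day 10, counted from tumour inoculation. They differed in 4 injections beside the tumour from day 10 on, every other day, of 20 µg IL-10/Fc (interleukin-10 fused to an antibody Fc part) or of phosphate-buffered saline (PBS). On day 18, Thy1.1+ CD8+ cells positive for PD-1 and TIM-3 were sorted, 500 cells per library, which gave 2 PBS and 4 IL-10/Fc libraries. The cells measured were thus the early transferred ones within the tumour, and every animal had also received the later activated cells. The labels name replicates without saying that they were separate mice, and a p-value here speaks only of spread among these libraries, which could be technical. Because each library was 500 cells, fewer cells expressing a gene and less RNA of it per cell cannot be told apart.

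TNF receptors are trimeric surface proteins that bind trimeric ligands of the TNF family. Receptors without a death domain recruit TRAF adaptors and feed the NF-kB and MAP kinase pathways, which in T cells favours survival and continued division after antigen contact. Receptors with a death domain can recruit FADD and caspase-8 and end in apoptosis, although TNFR1 and DR3 can also signal through NF-kB. OX40 (Tnfrsf4), 4-1BB (Tnfrsf9) and GITR (Tnfrsf18) are induced by antigen receptor signalling, while CD27 is already present on naive T cells.

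Reference sequence next to 4 of these genes is shown because OX40 and GITR were the members whose groups did not overlap, 4-1BB was the most abundant and Fas the most abundant death receptor. RefSeq windows on GRCm38.p6, from 250 bases before to 50 after a transcription start, were held for 8 of the 10 members, in 10 windows. The bases below lie before the start and outside annotated UTRs, except for short sites of at most 30 bases, and are given 5′ to 3′ on the + strand. Capitals mark matches to TTCNNNGAA (bound by STAT factors), TGANTCA (bound by AP-1) or the NF-kB consensus, each searched on both strands.
Tnfrsf4, chr4:156013611-156013694: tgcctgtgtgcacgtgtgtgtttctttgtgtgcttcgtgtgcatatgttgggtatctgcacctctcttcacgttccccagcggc
Tnfrsf18, chr4:156026072-156026163: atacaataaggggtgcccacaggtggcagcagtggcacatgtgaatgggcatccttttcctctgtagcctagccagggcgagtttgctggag
Tnfrsf18 STAT-type site, chr4:156026214-156026240: gctctacacTTCACAGAAggcctttac
Tnfrsf9 (the second RefSeq start), chr4:150927749-150927917: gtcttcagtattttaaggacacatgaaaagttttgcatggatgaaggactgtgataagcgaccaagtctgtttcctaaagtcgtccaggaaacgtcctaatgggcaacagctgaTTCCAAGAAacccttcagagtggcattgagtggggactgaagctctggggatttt
Tnfrsf9 NF-kB-type site, chr4:150927947-150927975: agagcagctGGGGATTTCCCaggaggccc
Tnfrsf9 AP-1-type site, chr4:150927975-150927999: ctgctcagtTGAGTCAcaggtcctg
Fas, chr19:34290409-34290658: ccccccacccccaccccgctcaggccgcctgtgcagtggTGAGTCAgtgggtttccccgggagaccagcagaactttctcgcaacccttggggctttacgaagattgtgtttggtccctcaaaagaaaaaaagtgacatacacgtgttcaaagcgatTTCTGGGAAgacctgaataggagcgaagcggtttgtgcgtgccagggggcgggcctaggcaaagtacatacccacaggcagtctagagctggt

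TTCNNNGAA was found in 6 of the 10 member windows, against 8.3% of all 32851 windows of 300 bases. TGANTCA was found in 2 of the 10, against 7.81% of all windows, and the NF-kB consensus in 1 of the 10, against 4.51%. The Tnfrsf4 and Cd27 windows, and the windows at the first RefSeq starts of Tnfrsf9 and Tnfrsf25, held no match to any of the 3 motifs. In the window at the second start of Tnfrsf9, 2 overlapping NF-kB matches stood beside 1 TGANTCA and 1 TTCNNNGAA, with the AP-1 match close to the start. These are matches of letters and were not tested for binding.

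Per kilobase of exon, the order of the members was the same from Tnfrsf4 down to Tnfrsf1a in the 6 libraries. 4-1BB led at 713 CPM per kb as the mean of the 6 libraries (range 591 to 874), followed by OX40 at 629 (427 to 847), GITR at 389 (340 to 540), CD27 at 227 (124 to 303) and Fas at 46.4 (31.6 to 59.8). CPM is a gene's count relative to the library's total, here scaled by TMM, the trimmed mean of M-values. The first pair were not separated, since 4-1BB lay above OX40 in 5 of 6 libraries and below it in the other. OX40 lay above GITR in 6 of 6, with overlapping ranges. The GITR length includes 414 bases shared with an antisense gene, and how reads there were counted is not known, so this order may depend on it. GITR, CD27, Fas and TNFR2 (Tnfrsf1b, 13.2 CPM per kb) were each separated from the next without overlap, down to TNFR1 (Tnfrsf1a, 3.71 CPM per kb). TNFR1 lay above Tnfrsf26 in 6 of 6 libraries, with overlapping ranges. Tnfrsf26, Tnfrsf10b and Tnfrsf25 lay at or below 2.93 CPM per kb in each library and were at 0 in at least 1 of them. On this scale 4-1BB, OX40, GITR and CD27 together held 96.2% to 97.6% of the summed level of the 10 receptors in every library.

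**Figure D1:**
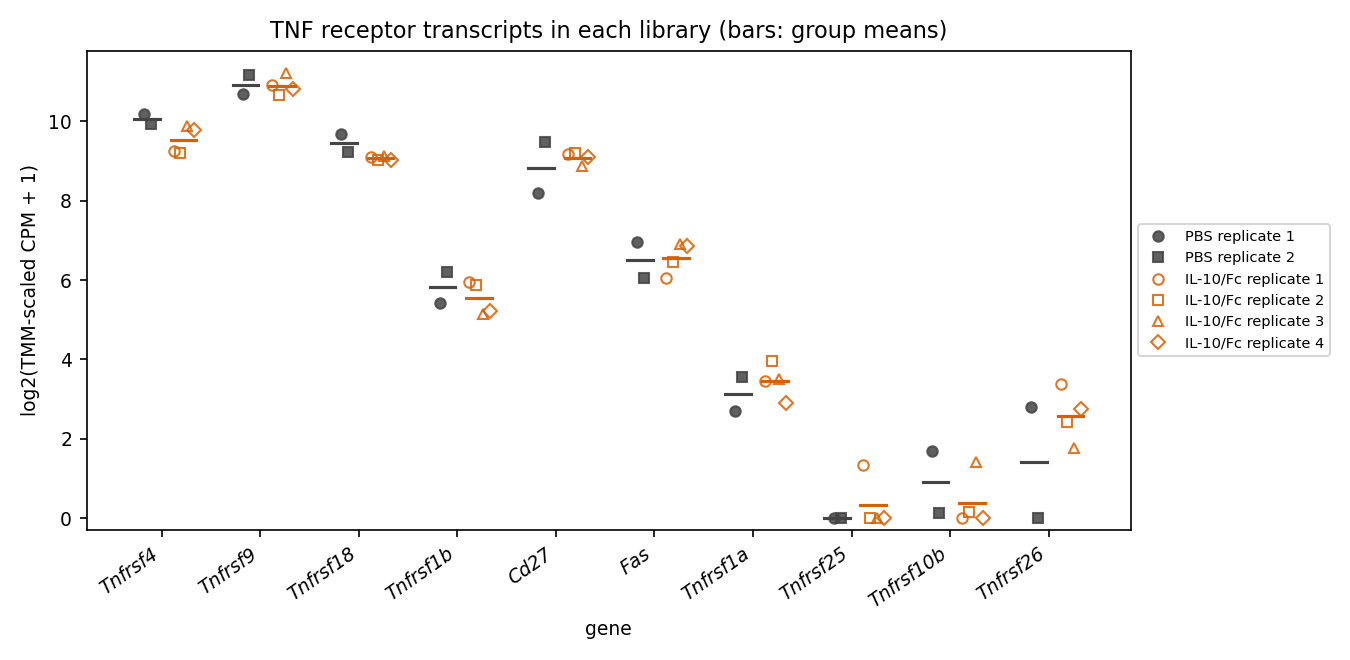
TMM-scaled CPM of the 10 receptor genes in each library, as log2(CPM + 1); filled grey points are the 2 PBS libraries, open orange points the 4 IL-10/Fc libraries, and bars the group means of the plotted values. The 2 groups do not overlap for Tnfrsf4 and Tnfrsf18, which lie lower in IL-10/Fc, and overlap for the other 8; the 2 PBS libraries stand apart from each other for Cd27.

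No receptor passed the test between IL-10/Fc and PBS. With edgeR (quasi-likelihood F test, Benjamini-Hochberg over 15477 genes), 0 of the 9 tested members had an adjusted p under 0.05, where 0.00646% of all genes (1 gene) did. DESeq2's Wald test, which called 4.85% of all genes (3.33% higher and 1.52% lower), and limma-voom, which called 0.00646%, also called 0 of the 9. At an unadjusted p under 0.05 there was 1 member, GITR, on the lower side, where 12.7% of all genes had such a p (7.20% higher and 5.52% lower). With library size as the sole scaling, 652 genes had such a p on the higher side and 1647 on the lower, beside 1115 and 855 under TMM. The 2 groups did not overlap for 2 of the 9, OX40 and GITR, both lower in IL-10/Fc, against 11.5% of all genes lower without overlap and 12.1% higher. The median log2 fold change of the 9 was -0.03, and that of all genes tested -0.01. Scaling by library size only moved the median of all genes to -0.18, so log2 fold changes there are read against that shift.

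OX40 (Tnfrsf4), which prolongs the survival of activated T cells, stood at 1156 and 982 CPM in PBS replicates 1 and 2. It stood at 614, 584, 938 and 879 CPM in IL-10/Fc replicates 1 to 4. Each IL-10/Fc library lay below both PBS libraries, with replicates 1 and 2 far below and replicates 3 and 4 close to PBS replicate 2. The group means were 1069 ± 123 CPM (SD, n = 2) without IL-10/Fc and 754 ± 181 CPM (SD, n = 4) with it, a log2 fold change of -0.50 (SE 0.22, 95% interval -1.04 to 0.04). It was not called (adjusted p = 0.422 by edgeR, 0.239 by DESeq2), and its log2 fold change stayed between -0.83 and -0.38 in the 14 other settings.

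GITR (Tnfrsf18), a costimulator that effector and regulatory T cells share, stood at 823 and 596 CPM in the PBS libraries, against 543, 523, 554 and 518 CPM in IL-10/Fc. The 4 IL-10/Fc libraries lay within 1.07-fold of each other and below both PBS libraries, while the 2 PBS libraries differed by 1.38-fold. Group means were 710 ± 160 CPM (SD, n = 2) without IL-10/Fc and 535 ± 16.9 CPM (SD, n = 4) with it, a log2 fold change of -0.41 (SE 0.13, 95% interval -0.73 to -0.08, unadjusted p = 0.0215). It had the smallest adjusted p of the members, 0.314 by edgeR and 0.119 by DESeq2. The size of the difference rested on PBS replicate 1: without that library the log2 fold change was -0.16, and without PBS replicate 2 it was -0.62 (adjusted p = 0.0965 by edgeR), with the lone PBS library assumed to vary like the others.

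OX40 and GITR are neighbours on chromosome 4 (GRCm38), at 156013843 to 156016612 and 156026164 to 156028895 on the + strand, with 9551 bases between them. Sdf4 ends 232 bases before OX40 starts; it encodes a calcium-binding protein of the Golgi and stood at 973 and 896 CPM in the PBS libraries, against 923, 717, 812 and 830 CPM in IL-10/Fc. Its groups overlapped (log2 fold change -0.19, edgeR adjusted p = 0.564). Gm16008, an antisense gene, shares 414 exonic bases with GITR, 27.2% of the GITR exon length, and the library type does not mark strand. It held only 48 to 144 counts per library, at most 0.591% of the sum of the pair. These counts cannot show how reads in the shared bases were assigned, since the counting tool is not known. Sdf4 and Gm16008 were chosen after their values were seen, as the genes beside the pair. In all, 5 of the 10 members lie on chromosome 4: the others are Tnfrsf9 (chr4:150914562-150946102, + strand), Tnfrsf25 (chr4:152115934-152120119, + strand) and Tnfrsf1b (chr4:145213463-145246870, - strand). Chromosome 6 holds Cd27 (chr6:125232622-125237010, - strand) and Tnfrsf1a (chr6:125349362-125362484, + strand). Fas lies at chr19:34290659-34327770 (+ strand), Tnfrsf10b at chr14:69767472-69784403 (+ strand) and Tnfrsf26 at chr7:143607659-143628722 (- strand).

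4-1BB (Tnfrsf9), which supports the expansion and survival of CD8+ T cells, stood at 1660 and 2279 CPM in the PBS libraries, against 1924, 1608, 2380 and 1795 CPM in IL-10/Fc. The groups overlapped fully: the PBS libraries lay inside the IL-10/Fc range. The log2 fold change was -0.03 (SE 0.19), with a 95% interval from -0.50 to 0.44 that allows changes from 0.708-fold to 1.35-fold. Its sign turned in 3 of 14 other settings, and it was 0.22 without PBS replicate 2 and -0.24 without PBS replicate 1.

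CD27 (Cd27), a receptor of naive and memory T cells whose ligand is CD70, stood at 289 and 706 CPM in the PBS libraries, against 575, 590, 468 and 547 CPM in IL-10/Fc. The 4 IL-10/Fc libraries lay between the 2 PBS libraries, which differed by 2.44-fold, the widest gap in PBS among the members above 20 CPM. The log2 fold change was 0.13 (SE 0.33, 95% interval -0.67 to 0.93), turning to -0.0316 when only library size was scaled for. It was -0.38 without PBS replicate 1 and 0.91 without PBS replicate 2, so its direction rested on which PBS library was used.

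TNFR2 (Tnfrsf1b), the TNF receptor without a death domain, stood at 42.0 and 72.6 CPM in the PBS libraries, against 61.0, 57.2, 34.5 and 36.0 CPM in IL-10/Fc. IL-10/Fc replicates 1 and 2 lay between the PBS libraries and replicates 3 and 4 below both. The log2 fold change was -0.28 (SE 0.34, 95% interval -1.09 to 0.53; edgeR adjusted p = 0.808), and 0.17 without PBS replicate 2.

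Among the death receptors, Fas, through which FasL kills activated T cells, stood at 123 and 65.8 CPM in the PBS libraries, against 65.1, 85.9, 119 and 115 CPM in IL-10/Fc. The 2 groups spanned nearly the same range, and each had libraries near its top and its bottom. The log2 fold change was 0.02 (SE 0.34, 95% interval -0.79 to 0.84; edgeR adjusted p = 0.990), turning to -0.15 when only library size was scaled for. It was 0.55 without PBS replicate 1 and -0.36 without PBS replicate 2.

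TNFR1 (Tnfrsf1a), the TNF receptor that carries a death domain, stood at 5.43 and 10.8 CPM in the PBS libraries, against 9.99, 14.6, 10.3 and 6.44 CPM in IL-10/Fc. The lowest value was in PBS replicate 1 and the highest in IL-10/Fc replicate 2, with the rest intermixed. The log2 fold change was 0.34 (SE 0.43, 95% interval -0.70 to 1.39; edgeR adjusted p = 0.819), and -0.07 without PBS replicate 1.

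The other death receptors were barely counted. Tnfrsf10b, a mouse receptor for TRAIL with a death domain, had 66 and 3 counts in the PBS libraries and 0, 3, 46 and 0 counts in the IL-10/Fc libraries, or at most 2.24 CPM. Its log2 fold change was -1.41 (SE 2.19), with a 95% interval from -6.70 to 3.89 that spans large changes in both directions. Tnfrsf25 had 46 counts (1.54 CPM) in IL-10/Fc replicate 1 and 0 in the 5 other libraries. A count of 0 allows up to 3 counts, which is 0.0855 to 0.108 CPM in these libraries; such floors cover counting error only, as reads are not counted by molecule. Neither gene's level could be compared between groups at this depth.

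Tnfrsf26, the member placed in neither group, had 176 and 0 counts in the PBS libraries and 281, 125, 67 and 201 counts in the IL-10/Fc libraries. In CPM these were 5.98 and 0 against 9.42, 4.36, 2.41 and 5.73. PBS replicate 1 lay inside the IL-10/Fc range and PBS replicate 2 below it. The log2 fold change was 0.87 (SE 1.52, 95% interval -2.80 to 4.55), and without PBS replicate 2 it was -0.12. It shares 107 exonic bases (3.33% of its exon length) with the antisense gene E230032D23Rik.

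**Figure D2:**
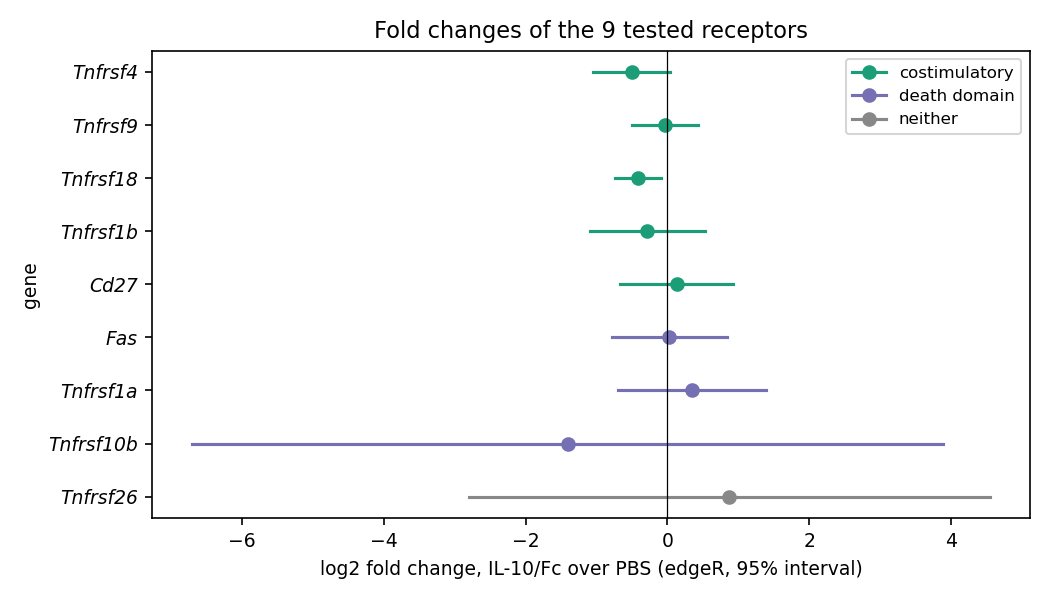
Log2 fold change of IL-10/Fc over PBS for the 9 tested receptors with 95% intervals from edgeR's fit over all genes. Green marks costimulatory receptors, purple death domain receptors and grey Tnfrsf26; only the interval of Tnfrsf18, -0.73 to -0.08, lies wholly on 1 side of 0, and that gene does not pass after adjustment over all genes (adjusted p = 0.314).

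Set against each other as sums, costimulatory and death receptors kept their large gap in every library. It did not hold for each member, since per kilobase Fas lay above TNFR2 in 6 of 6 libraries. The 5 costimulatory genes summed to 3970 and 4636 CPM in the PBS libraries, against 3717, 3361, 4375 and 3775 CPM in IL-10/Fc. The 4 death domain genes summed to 131 and 76.7 CPM in the PBS libraries, against 76.6, 101, 130 and 121 CPM in IL-10/Fc. For both sums the groups overlapped, and the 2 sums had their PBS extremes in opposite libraries: PBS replicate 2 had the highest costimulatory sum of all 6 and nearly the lowest death receptor sum.

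The difference between mean log2 CPM of the costimulatory and of the death domain genes was 7.15 and 8.45 in the PBS libraries, against 7.34, 7.82, 7.05 and 8.35 in IL-10/Fc. The group means differed by -0.16, against a spread within groups of 0.67 (pooled SD). Tnfrsf10b and Tnfrsf25, which enter this mean with equal weight, were near 0 in most libraries. With Fas and TNFR1 as the sole death receptors, a choice made after the data were seen, the difference was 4.12 and 4.45 in the PBS libraries, against 4.19, 3.63, 3.71 and 4.00 in IL-10/Fc. The group means then differed by -0.40 with a pooled SD of 0.25, and IL-10/Fc replicate 1 lay inside the PBS range. By counts, 1 of the 5 costimulatory genes lay higher and 4 lower (median log2 fold change -0.28), while 2 of the 3 tested death domain genes lay higher and 1 lower (median 0.02). Over all genes tested, 7635 lay higher and 7842 lower. These signs include 4-1BB at -0.03 and Fas at 0.02, which turned in 3 and 5 of 14 other settings. These are descriptions, without a test of the contrast between the kinds of receptor.

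**Figure D3:**
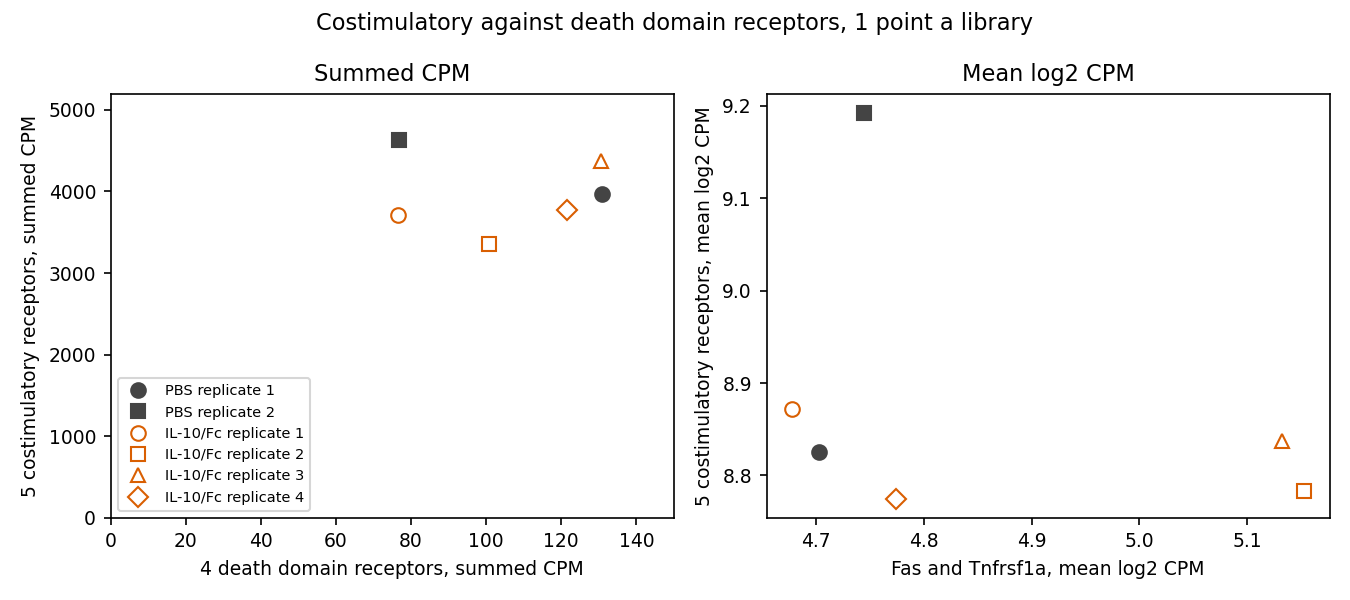
Each point is 1 library; the left panel sets summed CPM of the 5 costimulatory genes against that of the 4 death domain genes, and the right panel the mean log2 CPM of the costimulatory genes against that of Fas and Tnfrsf1a, on axes that do not start at 0. Filled grey points are PBS and open orange points IL-10/Fc; the costimulatory sums lie between 3361 and 4636 CPM and the death domain sums between 76.6 and 131 CPM, with both groups mixed.

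The members did not vary together across the 6 libraries. Pearson correlations of log2 CPM between the 6 members above 20 CPM ran from -0.93 (TNFR2 with Fas) to 0.69 (OX40 with GITR), over 6 libraries that share scaling and group, and are given as a description. Fas was high and TNFR2 low in PBS replicate 1 and in IL-10/Fc replicates 3 and 4, and the reverse held in the other 3 libraries. OX40 and Fas were both higher in IL-10/Fc replicates 3 and 4 than in replicates 1 and 2. Among 5451 other genes of at least 20 CPM, the pair most like each member in pattern was Tmem97 (r = 0.989) and Gm11221 (0.981) for OX40, and Clk1 (0.990) and Fah (0.974) for 4-1BB. For GITR it was Crtam (0.995) and Atg101 (0.994), for TNFR2 Nfatc1 (0.977) and Trnt1 (0.970), for CD27 Slc39a6 (0.996) and Zfp800 (0.990), and for Fas Jmjd6 (0.983) and Ctsl (0.981). With 6 libraries and that many genes, such values come with the choice of the highest.

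Of the pathway lists, the ligands held the largest fold changes. Of 17 TNF family ligands on the list 12 were tested, 3 higher and 9 lower, with a median log2 fold change of -0.50; 0 passed by edgeR, 3 had an unadjusted p under 0.05 (1 higher, 2 lower), and DESeq2 called 2. The groups did not overlap for 4 of the 12, 1 higher and 3 lower. Over all genes, 12.1% lay higher and 11.5% lower without overlap. An unadjusted p under 0.05 by edgeR was held by 12.7% of all genes, and DESeq2 called 4.85%. TRAIL (Tnfsf10), the ligand of Tnfrsf10b and an interferon-inducible gene, stood at 25.03 and 36.9 CPM in the PBS libraries, against 87.4, 90.0, 76.5 and 73.0 CPM in IL-10/Fc. Every IL-10/Fc library lay above both PBS libraries, with a log2 fold change of 1.40 (SE 0.20, 95% interval 0.91 to 1.89; adjusted p = 0.148 by edgeR and 1.23e-07 by DESeq2). With a filter of 20 CPM in 2 libraries, edgeR called 60 of 5974 genes, 1 of them on the pathway lists and none of the 6 members tested there.

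CD70 (Cd70), the ligand of CD27, stood at 42.2 and 11.3 CPM in the PBS libraries, against 2.08, 2.16, 7.75 and 1.62 CPM in IL-10/Fc. It lay lower in each IL-10/Fc library, by -2.98 on the log2 scale (SE 0.78; adjusted p = 0.246 by edgeR and 0.00447 by DESeq2), while the 2 PBS libraries themselves lay wide apart. OX40 ligand (Tnfsf4) stood at 118 and 116 CPM in the PBS libraries, against 19.3, 20.1, 97.1 and 33.6 CPM in IL-10/Fc, where replicate 3 came near PBS (log2 fold change -1.46, SE 0.66, edgeR adjusted p = 0.435). CD30 ligand (Tnfsf8) stood at 19.4 and 5.00 CPM against 0.436, 3.24, 1.08 and 3.31 CPM (edgeR adjusted p = 0.328). CD70 and OX40 ligand are best known on antigen-presenting cells and also appear on activated T cells.

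For FasL, TNF and 4-1BB ligand the 2 groups overlapped. FasL (Fasl), the most abundant ligand in CPM, stood at 599 and 646 CPM in the PBS libraries, against 501, 601, 604 and 595 CPM in IL-10/Fc. Its log2 fold change was -0.11 (95% interval -0.37 to 0.15). TNF (Tnf) stood at 28.9 and 23.1 CPM against 25.1, 11.3, 19.6 and 31.4 CPM, and 4-1BB ligand (Tnfsf9) at 5.67 and 1.96 CPM against 4.93, 5.96, 11.4 and 5.53 CPM. These 3 were named as ligands of members, outside the rule for naming genes. The ligands of GITR (Tnfsf18) and DR3 (Tnfsf15) were on the list of 17 but not among the 12 found in the genes of the series.

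**Figure D4:**
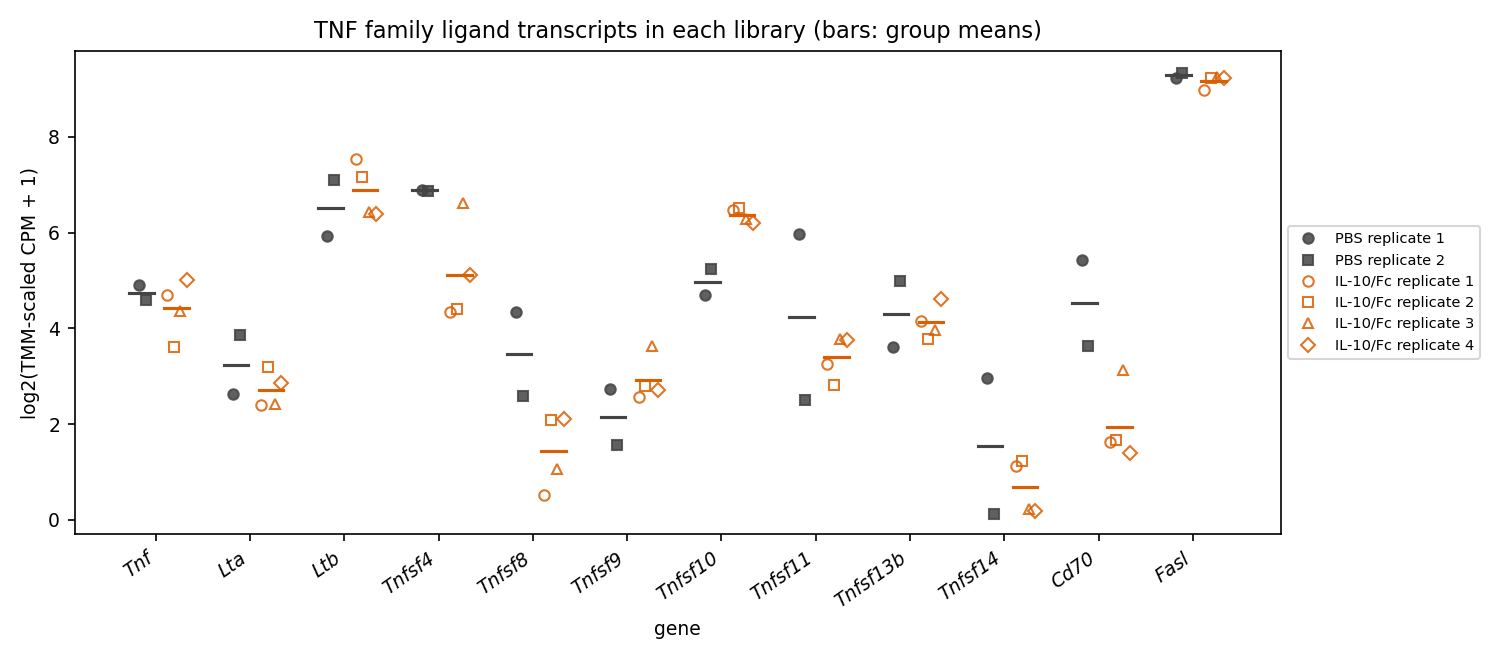
TMM-scaled CPM of the 12 tested TNF family ligands in each library, as log2(CPM + 1), with points and bars as for the receptors. Tnfsf10 lies higher in the 4 IL-10/Fc libraries, from 73.0 to 90.0 CPM against 25.03 and 36.9 CPM, and Tnfsf4, Tnfsf8 and Cd70 lie lower without overlap.

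Downstream of the receptors, 16 TRAF adaptors and ubiquitin ligases were tested, 8 higher and 8 lower, with a median log2 fold change of 0.02. By edgeR 0 passed and 3 had an unadjusted p under 0.05, beside 12.7% of all genes. DESeq2, which called 4.85% of all genes, called 1 of the 16. That gene was TRAF2 (Traf2), which binds the tails of most costimulatory members, at 48.0 and 54.0 CPM in the PBS libraries, against 34.3, 35.6, 26.7 and 33.5 CPM in IL-10/Fc. Its groups did not overlap, at -0.65 on the log2 scale (SE 0.17; adjusted p = 0.232 by edgeR and 0.0317 by DESeq2). TRAF4 (Traf4) stood at 58.1 and 40.0 CPM against 21.8, 23.6, 30.2 and 11.1 CPM (edgeR adjusted p = 0.309). TRAF1 (Traf1), which 4-1BB uses beside TRAF2, overlapped between the groups at 165 ± 28.6 CPM (SD, n = 2) without IL-10/Fc and 173 ± 22.0 CPM (SD, n = 4) with it. Sharpin, a subunit of the linear ubiquitin ligase complex, stood at 34.0 ± 2.51 and 44.0 ± 2.18 CPM, and Map3k14, the kinase NIK of the noncanonical NF-kB pathway, at 11.2 and 5.59 CPM against 15.3, 9.31, 15.7 and 11.6 CPM; both missed the threshold.

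Of 15 death signalling genes, 7 lay higher and 8 lower, with a median log2 fold change of -0.00303. By edgeR 0 passed and 3 had an unadjusted p under 0.05, beside 12.7% of all genes. DESeq2, which called 4.85% of all genes, called 1 of the 15. That gene was Casp6, an executioner caspase, at 35.9 and 43.9 CPM in the PBS libraries, against 55.7, 57.3, 86.3 and 84.7 CPM in IL-10/Fc (log2 fold change 0.83, SE 0.25; adjusted p = 0.285 by edgeR and 0.0382 by DESeq2). FLIP (Cflar), the inhibitor of caspase-8 at death receptors, stood at 28.5 and 16.0 CPM against 44.5, 45.0, 36.4 and 35.9 CPM, without overlap (log2 fold change 0.86, SE 0.27; adjusted p = 0.297 by edgeR and 0.0551 by DESeq2). Faf1, a Fas-associated factor, stood at 56.8 ± 6.92 CPM (SD, n = 2) without IL-10/Fc and 37.3 ± 6.23 CPM (SD, n = 4) with it. Diablo, which relieves caspase inhibition, stood at 69.4 ± 8.34 and 84.5 ± 6.95 CPM. Casp8 itself, which Fas recruits through FADD, overlapped between the groups at 160 ± 34.0 and 194 ± 24.7 CPM.

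The NF-kB list held 19 genes: subunits and feedback genes, and also Bcl2l1, Icam1, Ikbkb, Ikbkg and Chuk. Of the 19, 7 lay higher and 12 lower, with a median log2 fold change of -0.14. By edgeR 0 passed, 4 had an unadjusted p under 0.05 (1 higher, 3 lower), and DESeq2 called 0. Groups did not overlap for 6 of the 19, 1 higher and 5 lower. Over all genes, 12.1% lay higher and 11.5% lower without overlap. An unadjusted p under 0.05 by edgeR was held by 12.7% of all genes, and DESeq2 called 4.85%. Bcl2l1, which encodes the survival protein BCL-XL, stood at 80.1 and 48.9 CPM in the PBS libraries, against 42.8, 36.3, 22.6 and 28.0 CPM in IL-10/Fc (log2 fold change -0.99, SE 0.31, edgeR adjusted p = 0.295). The subunit genes Rela and Relb stood at 63.1 ± 2.13 and 51.9 ± 3.66 CPM (SD, n = 2) without IL-10/Fc and at 47.2 ± 4.60 and 32.1 ± 7.81 CPM (SD, n = 4) with it. Ikbkb, the kinase of the canonical pathway, stood at 29.9 ± 3.73 and 52.4 ± 14.4 CPM.

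Most other genes of the receptor family were scarce. Of 18 on the list 11 were tested, 7 higher and 4 lower (median log2 fold change 0.59, but 0.14 without PBS replicate 1, 0.21 without IL-10/Fc replicate 3, 0.39 without IL-10/Fc replicate 2 and 0.19 in the fit with a replicate block); 0 passed by edgeR, 0 had an unadjusted p under 0.05, and DESeq2 called 0. The most abundant was Tnfrsf13b, which encodes the BAFF and APRIL receptor TACI, at 28.6 and 3.73 CPM in the PBS libraries, against 1.07, 15.9, 8.39 and 5.42 CPM in IL-10/Fc. It varied widely within both groups, which overlapped, and was named after its values were seen. Relt stood at 8.72 ± 3.23 CPM (SD, n = 2) without IL-10/Fc and 4.48 ± 2.05 CPM (SD, n = 4) with it, Tnfrsf22 at 2.76 ± 0.994 and 4.13 ± 1.38 CPM, Tnfrsf13c at 2.19 ± 1.52 and 3.61 ± 0.941 CPM and Tnfrsf14 at 1.48 ± 1.70 and 3.88 ± 3.20 CPM. Over the 73 tested genes of the 5 lists, 17.8% had an unadjusted p under 0.05 and 24.7% did not overlap between groups, beside 12.7% and 23.6% of all genes.

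**Figure D5:**
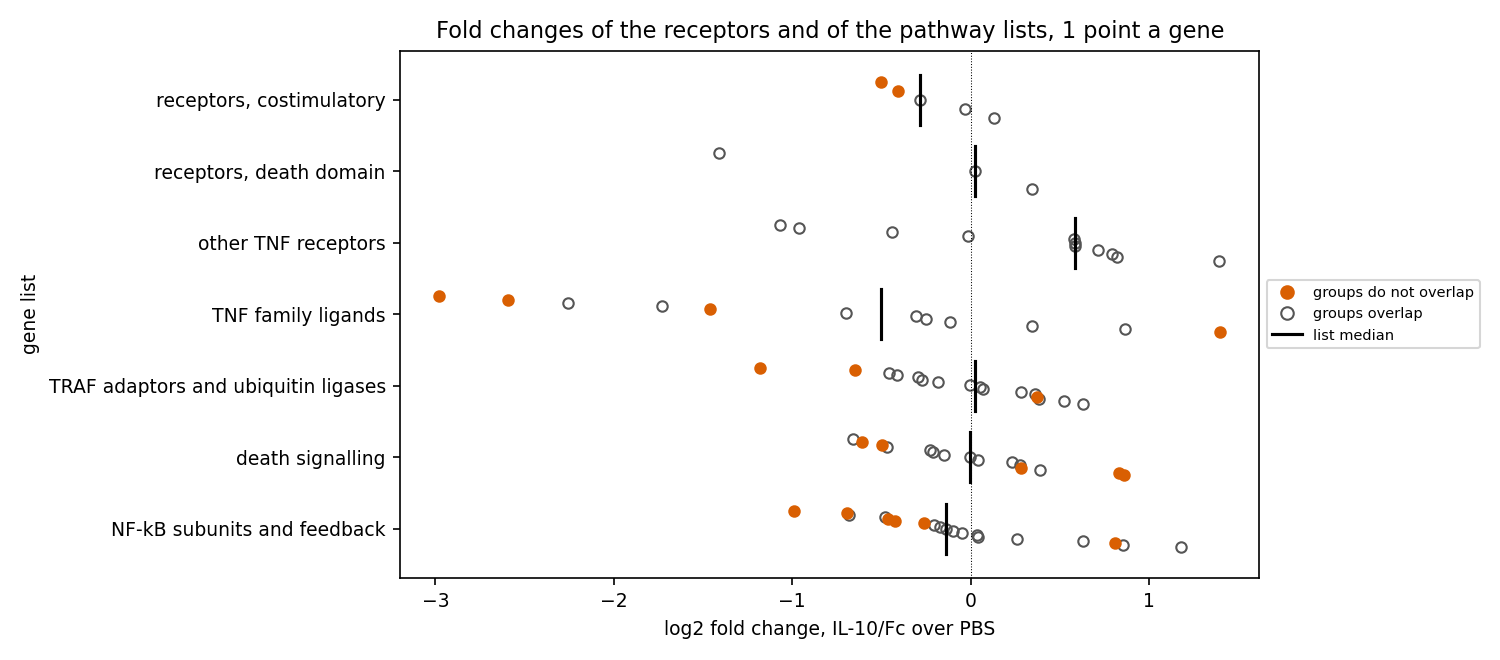
Log2 fold change of IL-10/Fc over PBS for each tested gene of the 2 receptor groups and of the 5 pathway lists; filled points are genes whose groups do not overlap and vertical bars list medians. The ligands reach furthest, from -2.98 (Cd70) to 1.40 (Tnfsf10), and the receptors above 20 CPM lie between -0.50 and 0.13.

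The sorted phenotype was present in every library. Cd8a stood at 910 and 2292 CPM in the PBS libraries, against 3161, 3097, 2896 and 3144 CPM in IL-10/Fc, Thy1 at 219 ± 57.4 CPM (SD, n = 2) without IL-10/Fc and 519 ± 130 CPM (SD, n = 4) with it, Pdcd1 at 1432 ± 207 and 918 ± 177 CPM and Havcr2 at 194 ± 8.06 and 219 ± 64.4 CPM. The 10 markers of the sorted cell summed to 5468 to 7713 CPM in the PBS libraries, against 8821 to 9930 CPM in IL-10/Fc. PBS replicate 1 was lowest in Cd8a, Cd27 and TNFR1.

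Markers of other cells moved with the groups or with single libraries. All 16 macrophage and monocyte markers were tested, 14 higher, and summed to 319 to 483 CPM in the PBS libraries, against 244 to 1072 CPM in IL-10/Fc, highest in replicates 3 and 4. In those replicates OX40 and Fas were higher than in replicates 1 and 2, and TNFR2 was lower. OX40 (1156 CPM) and Fas (123 CPM) were highest in PBS replicate 1, where the marker sum was 319 CPM. Of the 16 markers, only Mrc1 was at 0 in both PBS libraries. The defining markers Csf1r and Adgre1 stood at 2.15 ± 2.30 and 2.01 ± 1.26 CPM (SD, n = 2) without IL-10/Fc and 8.86 ± 7.02 and 4.69 ± 3.62 CPM (SD, n = 4) with it. The 7 listed markers of dendritic cells and MHC class II summed to 228 to 310 CPM and 172 to 1915 CPM, and the 6 of NK cells to 150 to 350 CPM and 342 to 795 CPM. Fcer1g and Tyrobp are on both the NK cell and the macrophage list, so those sums are not independent. CD4 and regulatory T cells use OX40 and GITR too. Their list was Cd4, Foxp3, Ikzf2, Il2ra, Zbtb7b, Cd40lg, Ctla4 and Lrrc32. Of these 8, the 5 among the genes of the series, 3 higher and 2 lower, summed to 455 to 589 CPM and 504 to 675 CPM. Values of Cd4 and Foxp3 by themselves are not given here. Of 7 B cell markers on the list, 2 were among the genes of the series, 1 higher and 1 lower. Their sum was 42.5 to 42.8 CPM and 3.92 to 15.5 CPM, lower in IL-10/Fc as CD70 was, but only 1 of the 2 went that way. Melanoma, neutrophil and stromal markers summed to at most 20.4 CPM in any library. The part of these cells in the receptor and ligand values was not tested.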

How the data were processed

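RNA of 2 PBS and 4 IL-10/Fc libraries, each from 500 sorted cells, was prepared by Smart-Seq2, which reads whole transcripts without marking strand or molecules. The authors deposited whole-number counts per gene for 15898 genes, as 1 table and again per library with the same values. Per the submitters' processing notes, the tools were Cuffdiff, Cufflinks 2.2.1, DESeq2, TopHat2 2.1.1, Trimmomatic and Bowtie2 2.2.9, and the build GRCm38 (mm10); a counting tool was not given in the sources used here. Columns number the PBS libraries differently from the titles, and the titles were followed through each library's own file. Totals were 26738871 to 36941814 counts per library over the listed genes.

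Genes were kept with edgeR's filterByExpr (15477 genes), scaled by TMM and tested with edgeR 4.0.16 (R 4.3.3), glmQLFit with the robust option and glmQLFTest, group as the sole term, two-sided, with Benjamini-Hochberg adjustment at 0.05. A standard error is the log2 fold change over the root of F. Levels per kilobase used GENCODE M21 union exon lengths (15846 genes matched). Log2 CPM used a prior count of 2. Scripts were tested on simulated data whose spread was set low enough for known changes to be found. That checks the code and not the power to find changes in these libraries. Libraries of a group differed beyond counting noise (chi-square per degree of freedom from 42.7 to 123).

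Members, lists, alternatives and tests were chosen with earlier results of these data known. Named genes were every member, the 4 genes of smallest p per list, the sort markers, defining markers of other cells, and the 2 genes most like each member above 20 CPM. Traf1 and Casp8 were added as partners of members after their values were seen. A planned look for TRAF-binding patterns in proteins was not run. The authors' own comparison columns were not used. Alternatives were DESeq2 size factors, library size only, no filter, 20 CPM in 2 libraries, the replicate number as a block, DESeq2 1.42.0, limma-voom (limma 3.58.1), no robust option, each library left out, and for the receptor contrast a prior count of 0.5, medians and Tnfrsf25 as costimulatory; restricting that contrast to members of at least 1 CPM was chosen after seeing the data.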

Additional observations from a re-analysis of the deposited data

Results flagged for a closer look

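In the group of 4 IL-10/Fc libraries, 3 of 39 values tested had 1 library farther from the rest than Dixon's test allows at the 95% level, where chance flags about 1 in 20. Tnfrsf25 stood at 1.54 CPM in IL-10/Fc replicate 1 and at 0 in the other 3. Tnfrsf10b stood at 1.66 CPM in IL-10/Fc replicate 3 and at 0 to 0.105 CPM in the others. Cd70 stood at 7.75 CPM in IL-10/Fc replicate 3 and at 1.62 to 2.16 CPM in the others.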

How the results depend on the processing

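No member passed the threshold in any of the alternatives, with the smallest adjusted p at 0.0965 (Tnfrsf18 without PBS replicate 2, edgeR). The count of genes past the threshold, 1 as reported, was 60 with at least 20 CPM in 2 libraries and 750 by DESeq2, and 0 with scaling by library size only, with the replicate block and without the robust option. Left-out libraries gave 0 to 16, the highest without PBS replicate 2. Tnfrsf4 and Tnfrsf18 kept their direction in all 14 alternatives each. With scaling by library size only, the log2 fold change was -0.0316 for Cd27 and -0.15 for Fas, and list medians were -0.45 for the costimulatory receptors, -0.18 for death signalling and -0.31 for NF-kB genes. Death signalling also had medians of 0.24 at 20 CPM and 0.19 with the replicate block.

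With single libraries left out, log2 fold changes ran from -0.38 to 0.91 for Cd27, -0.36 to 0.55 for Fas, -0.0708 to 0.93 for Tnfrsf1a, -0.62 to 0.17 for Tnfrsf1b, -0.24 to 0.22 for Tnfrsf9, -2.34 to 2.11 for Tnfrsf10b and -0.12 to 10.4 for Tnfrsf26. The 2.11 and the 10.4 were both without PBS replicate 1. The remaining PBS library held 3 counts of Tnfrsf10b and 0 of Tnfrsf26, so neither value measures the size of a change. List medians ran from -0.42 to 0.17 for the costimulatory and -0.0733 to 1.33 for the death domain receptors, -0.12 to 0.24 for death signalling, -0.30 to 0.00209 for NF-kB genes, -0.62 to -0.15 for ligands, 0.14 to 0.64 for other TNF receptors and -0.26 to 0.16 for TRAF genes. The death domain set itself changed with the filter, as Tnfrsf25 joined it when either PBS library was left out. The 1.33, without PBS replicate 1, is thus not a median of the same genes as in the main fit. The costimulatory minus death receptor difference of -0.16 moved by less than its pooled SD but changed sign in some: it was -0.81 without PBS replicate 1, 0.49 without PBS replicate 2, 0.04 without IL-10/Fc replicate 3 and 0.46 with Tnfrsf25 as costimulatory. The cause was not tested.

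The replicate number as a block turned Fas to -0.27 and Tnfrsf1b to 0.10. Same-numbered libraries correlated at 0.0625 and 0.0148 in their deviations from the group means. With 2 PBS libraries these deviations mirror each other, so the values cannot show whether same-numbered libraries were paired.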
